A study of Mus musculus with 2 samples.

Results

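The cells described here were 251 luminal epithelial cells of the control mouse uterus in which genes of an Lgr5 set outnumbered genes of a Chil1 set. They were chosen by a rule on their own counts. A cell was called luminal when Epcam, Krt8, Krt18 and Cldn7 together reached 10 per 10000 of its unique molecular identifiers (UMIs, which count captured RNA molecules) and when stromal and glandular gate genes stayed under their limits. A luminal cell then joined the Lgr5 Cap2 type when more genes were detected among Lgr5, Cap2, Krt17, Khdrbs3 and Tm4sf1 than among Chil1, Nt5e, Fyb, Cacna2d3 and Egflam. The rule left 251 of 622 control luminal cells, 40.4% (exact binomial 95% interval 36.5 to 44.3), out of 4462 kept control cells and 7745 barcodes in both libraries. The opposite Chil1 Nt5e type held 230 cells and 141 cells were tied.

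Both libraries came from whole uterus at gestational day 3.5, digested with trypsin, with blood cells removed by a dead cell kit and RNA captured in 10x droplets. The control mouse carried floxed Mig-6 alleles and no Cre (Mig-6f/f). The library labelled knockout carried the same floxed alleles together with Cre at the progesterone receptor gene (Pgrcre/+Mig-6f/f), so any effect of Cre at Pgr is not separated from loss of Mig-6. There was 1 library per genotype and no replicate, and the labels state no age for the mice.

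The luminal epithelium is the sheet of cells lining the uterine cavity, the first maternal surface an embryo meets. Before attachment, ovarian progesterone and estrogen stop its division and change its surface. Progesterone acts in these cells through its receptor and the secreted signal Ihh, and it induces Mig-6, the product of Errfi1, a feedback inhibitor of the EGF receptor. Lgr5 is a receptor for R-spondins that strengthens WNT signalling and marks stem cells in the intestine. Cap2 binds actin, Krt17 is a keratin of stressed and basal-like epithelia, Khdrbs3 binds RNA, and Tm4sf1 is a small membrane protein.

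The control library held 44871170 UMIs and the library labelled knockout 23317904, with medians of 9090 and 4695 per barcode. The Lgr5 Cap2 type held 3389886 UMIs, from 609 to 54637 per cell with a median of 11265, and the Chil1 Nt5e type 3657476 UMIs with a median of 13068.5. Mitochondrial UMIs had a median of 4.92% in the former and 5.45% in the latter, and ribosomal protein genes made up 16.5% and 16.9% of UMIs. The libraries shared 3 barcodes, and 0 of them were in the Lgr5 Cap2 type. Levels are UMIs summed over a group and scaled to 1000000 UMIs of that group (CPM). Intervals are exact 95% intervals for counting error only, and no test was made, because cells of 1 library are not replicates.

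The label luminal was checked against luminal markers that the gates did not use. All 8 luminal markers were detected in the Lgr5 Cap2 type, at a summed 1109 CPM. The sum was 1041 CPM in the Chil1 Nt5e type and 143 CPM in control glandular cells. Among these markers, Calb1, a calcium-binding protein, was at 345 CPM and Hdc, which makes histamine, at 457 CPM, while Il13ra2 gave only 2 UMIs. Of 10 glandular markers, 5 of which the gates used, 8 were detected, at 122 CPM in all. Glandular cells, which those gate genes selected, had 23324 CPM, and that gap is set by the gates. Prss28 and Gkn3 were at 0, and Sox9 gave 337 of the 412 glandular marker UMIs. Markers of squamous or basal epithelium, the setting where Krt17 is best known, summed to 10.0 CPM with 5 of 6 detected and Krt5 at 0. Of their 34 UMIs 25 were Krt6a, and the Chil1 Nt5e type had 4.92 CPM with 3 of 6 detected. An oviduct list summed to 447 CPM, nearly the 449 CPM of glandular cells, and came from Pax8 and Ovgp1, while the ciliated-cell genes Dnah9 and Ccdc153 were at 0. Stromal markers summed to 13.0 CPM (2260 in stroma) and endothelial markers to 10.0 CPM. The smooth muscle list was at 40.7 CPM against 16.4 CPM in the Chil1 Nt5e type, and 113 of its 138 UMIs were Acta2. NK and T cell markers were at 0 of 5 detected. Macrophage markers summed to 36.3 CPM in 8 cells, against 14.8 CPM in 32 cells of the Chil1 Nt5e type, and 1 of the 251 cells carried immune markers at 10 per 10000 UMIs or more.

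The cells were cut from a count of detected genes, so the type is a range of that count by construction. The margin, the Lgr5-set genes detected minus the Chil1-set genes detected, was 1 in 111 cells, 2 in 78, 3 in 43, 4 in 18 and 5 in 1. Another 141 cells sat at 0, of which 9 had no rule gene at all, and 127 sat at -1. The 111 cells just inside the threshold had Lgr5 at 111 CPM and Krt17 at 159 CPM, and the 141 cells just outside had 56.9 and 61.7 CPM. Chil1, which encodes a secreted chitinase-like protein, was at 71.9 CPM just inside and 129 CPM just outside. These levels are of the rule's own genes and are given as a description. Among the 251 cells, 208 also held at least 1 UMI of the Chil1 set, and the median cell had 2.06 Chil1-set UMIs per 10000 against 5.34 in the Chil1 Nt5e type.

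**Figure D1:**
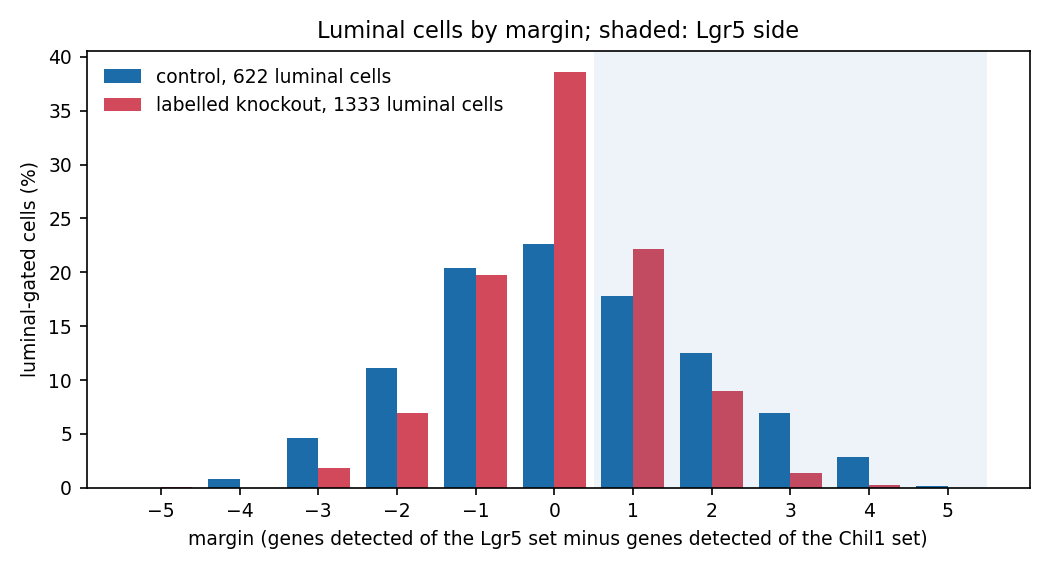
Share of luminal-gated cells (%, vertical axis) at each margin (horizontal axis, detected genes of the Lgr5 set minus detected genes of the Chil1 set) in the control (622 cells) and the library labelled knockout (1333 cells). Control cells form 1 peak at 0 with 22.7% of cells and 251 cells on the shaded Lgr5 side, and the library labelled knockout has 38.6% of its cells at 0.

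Lgr5 itself was not found in every cell of the type that carries its name. It was detected in 132 of the 251 cells, 52.6% (46.2 to 58.9), against 16.1% of Chil1 Nt5e cells, 3.88% of glandular cells and 2.07% of stromal cells, whose median UMI counts were 11265, 13068.5, 10667 and 8944. With every cell thinned to 4000 UMIs, which kept 244, 225, 101 and 3145 cells, the shares were 30.3%, 5.33%, 0% and 1.11%. Its level was 158 CPM (145 to 172) in the Lgr5 Cap2 type and 30.3 CPM in the Chil1 Nt5e type. Its 537 UMIs were uneven, since 16 cells held at least as many of them as all the others together. These values chose the cells and are a description.

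The other set genes differed in how widely they were spread. Cap2 was found in 85.7% of the cells at 323 CPM, Khdrbs3 in 75.3% at 159 CPM and Tm4sf1 in 74.9% at 286 CPM. Krt17 was the most uneven with Lgr5, found in 47.4% of the cells at 254 CPM, with 21 cells holding at least as many of its 860 UMIs as all the others. In the Chil1 Nt5e type these 4 genes were at 104, 47.0, 70.5 and 10.1 CPM. All 5 set genes were found together in 41 cells, 4 of them in 75 cells and 1 alone in 15 cells. Cap2 and Khdrbs3 were found together in 167 cells, and Lgr5 and Krt17 in 63. Stroma, which should lack an epithelial type, had Cap2 in 21.2% and Khdrbs3 in 20.2% of its cells, so neither gene is specific to this epithelium.

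**Figure D2:**
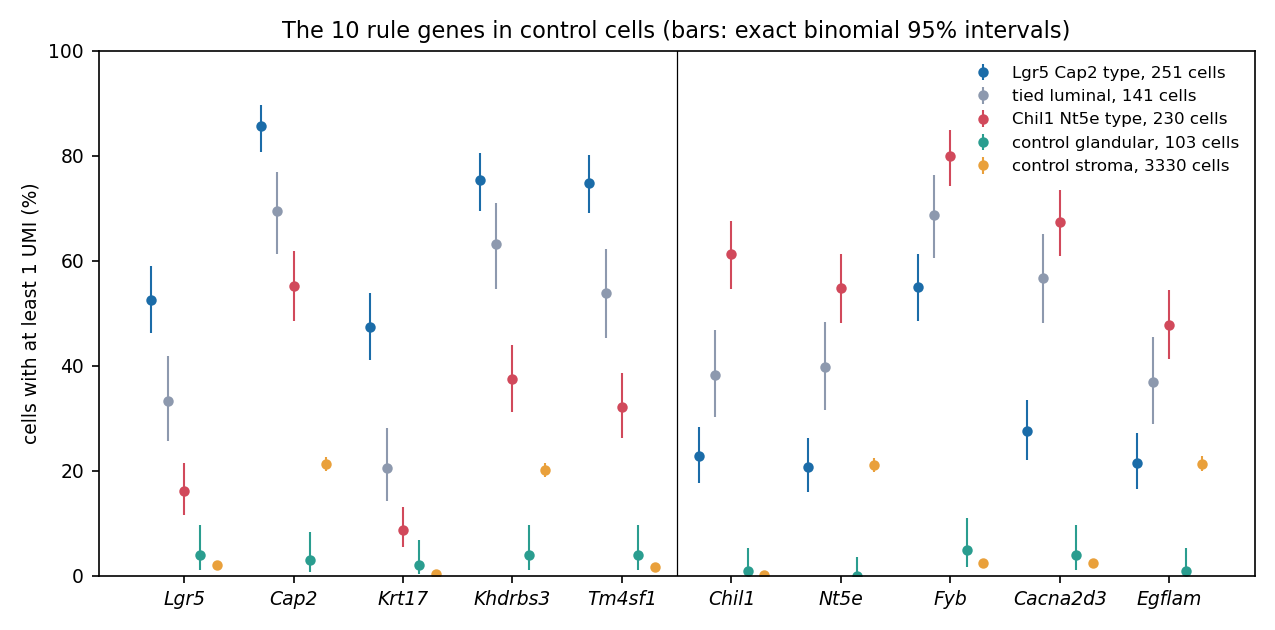
Share of cells with at least 1 UMI (%, vertical axis) for the 10 rule genes (horizontal axis) in 5 groups of control cells; points are shares and bars exact binomial 95% intervals. Lgr5 is found in 52.6% of the Lgr5 Cap2 type, 33.3% of tied cells and 16.1% of the Chil1 Nt5e type, and Cap2 and Khdrbs3 also appear in stromal cells, at 21.2% and 20.2%.

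Each rule gene was also compared after it had been left out of the rule, so that it did not itself choose the cells. The other rule genes, picked with earlier results of these data known, still sorted the same cells, so these ratios are descriptions. Without its own vote, Krt17 remained 5.54-fold higher (4.68 to 6.58) on the Lgr5 side, at 230.1 against 41.5 CPM. Lgr5 stood at 140.2 CPM there and 52.8 CPM on the Chil1 side, 2.65-fold higher (2.25 to 3.13). Tm4sf1 had a ratio of 2.72, Cap2 of 2.24 and Khdrbs3 of 2.15, so all 5 genes of the set were higher on the Lgr5 side. The Chil1 set was less even. Chil1 had a ratio of 0.787, Nt5e, an enzyme that makes adenosine, of 0.692 and Cacna2d3, a calcium channel subunit, of 0.773. The adaptor Fyb and the matrix protein Egflam were higher on the Lgr5 side, with ratios of 1.24 (1.07 to 1.43) and 1.35 (1.07 to 1.72).

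Luminal cells were also clustered on 1500 variable genes with the 10 rule genes left out. At a resolution of 0.3, chosen after the clusters had been seen, there were 3 clusters. The cluster of 255 cells held 180 of the 251 cells of the Lgr5 Cap2 type (71.7%), 48 tied cells and 27 cells of the Chil1 Nt5e type (11.7%). The other clusters, of 228 and 139 cells, held 41 and 30 of the Lgr5 Cap2 type. At a second resolution of 0.6 the type was spread over more clusters. A cluster of 164 cells held 120 of its cells (47.8%) and 12 of the Chil1 Nt5e type. Another, of 95 cells, held 60 (23.9%) and 17 of the Chil1 Nt5e type. The first principal component correlated with the margin at r = 0.58 over 622 cells, which share 1 library, and with log total UMIs at 0.10. It placed 73.7% of the Lgr5 Cap2 type, 39.0% of tied cells and 16.1% of the Chil1 Nt5e type above 0. Its leading genes on the Lgr5 side included Herc4, Igf1r, Itgav, Adm and Dusp5, and on the other side Padi1, Tgm2, Ifitm1 and Prap1.

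Against the Chil1 Nt5e type, 286 of 7292 genes with at least 100 UMIs were at least 2-fold higher (3.92%) and 86 at least 2-fold lower (1.18%), the rule genes left out. The median log2 ratio of all 7292 was -0.08. The shares of 3.92% and 1.18% are the background for each count of list members past 2-fold in this comparison. No such share is given for counts of intervals above or below 1, so those counts are descriptions only. In 145 of the higher and 17 of the lower genes the whole interval lay beyond 2-fold. The count of lower genes was fragile, between 21 and 201 under other settings of the rule and of the analysis, and that of higher genes lay between 173 and 425. Among called list members, 30 of 52 higher and 2 of 7 lower ones stayed at 2-fold or more under every other setting. Since the same cells chose the types, all of these values are descriptions.

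The genes that led on the Lgr5 side include transcription regulators, signalling proteins, secreted proteins and claudins. Bach2, a transcriptional repressor best known in lymphocytes, was at 143 CPM against 12.6 CPM, 11.4-fold higher (8.38 to 15.7), with UMIs in 108 cells against 20. Ndrg1, a stress and hypoxia responsive gene, was at 239 CPM against 29.0 CPM (8.25-fold, 6.73 to 10.2) and was found in 185 of the 251 cells. Rgs6, which turns off G proteins, was at 61.7 against 5.47 CPM but in only 40 cells. Itpkc, a kinase for an inositol phosphate, was at 51.0 against 5.74 CPM in 90 cells. Gab2, a docking protein for growth factor receptors, was 5.43-fold higher, Akap12, a scaffold for protein kinase A, 5.44-fold and Atxn1, a transcriptional regulator, 4.77-fold. Slpi, a secreted protease inhibitor, was 6.96-fold higher in 52 cells, Cxcl1, which draws neutrophils, 5.75-fold in 71 cells, and Plaur, the urokinase receptor, 6.15-fold in 80 cells. Fas, a death receptor, was 5.93-fold higher and Tango6, a factor in protein traffic, 5.13-fold. The antisense-named transcript Etaa1os was 10.1-fold higher, a value that is uncertain where reads of overlapping genes were not told apart. Bach2, Atxn1, Gab2, Slpi and Plaur had higher levels in control immune cells, at 442, 263, 169, 108 and 88.0 CPM, than in the Lgr5 Cap2 type. All 15 genes stayed at 2-fold or more under every other setting, the loss of the cell with immune markers included, but their sizes did not hold. Bach2 ran from 3.42-fold to 28.0-fold, Etaa1os from 3.10-fold to 10.7-fold and Cxcl1 from 4.82-fold to 43.2-fold.

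The genes that led on the other side include secreted proteins, a sugar carrier and regulators of the nucleus and cell cycle. Prap1, a secreted lipid-binding protein of gut and uterus, was at 808 CPM against 2057 CPM, 2.55-fold lower (2.44 to 2.66). Spp1, the adhesion protein osteopontin, was at 153 against 386 CPM, 2.53-fold lower. Both are uneven, with UMIs in 94 and 29 of the 251 cells. Id1, an inhibitor of differentiation factors and a BMP target, had the lowest ratio of these genes at 47.5 against 141 CPM, 2.98-fold lower (2.49 to 3.57). Ltf, the iron-binding lactoferrin that estrogen induces, was at 389 against 835 CPM. Tgm2, which cross-links proteins, was at 492 against 1005 CPM, and Guca2b, a peptide that controls salt and water secretion, at 508 against 1032 CPM. The glucose carrier Slc5a1 was 2.67-fold lower, the antioxidant enzyme Gpx3 2.62-fold and the cell cycle gene Ccnd1 2.21-fold. Samd12, Il1f6, Dpy19l1, Hdac7, Syt6 and Kazn were 2.10-fold to 2.76-fold lower. All 15 kept their direction under every other setting, but only 4 stayed at 2-fold or more under all.

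**Figure D3:**
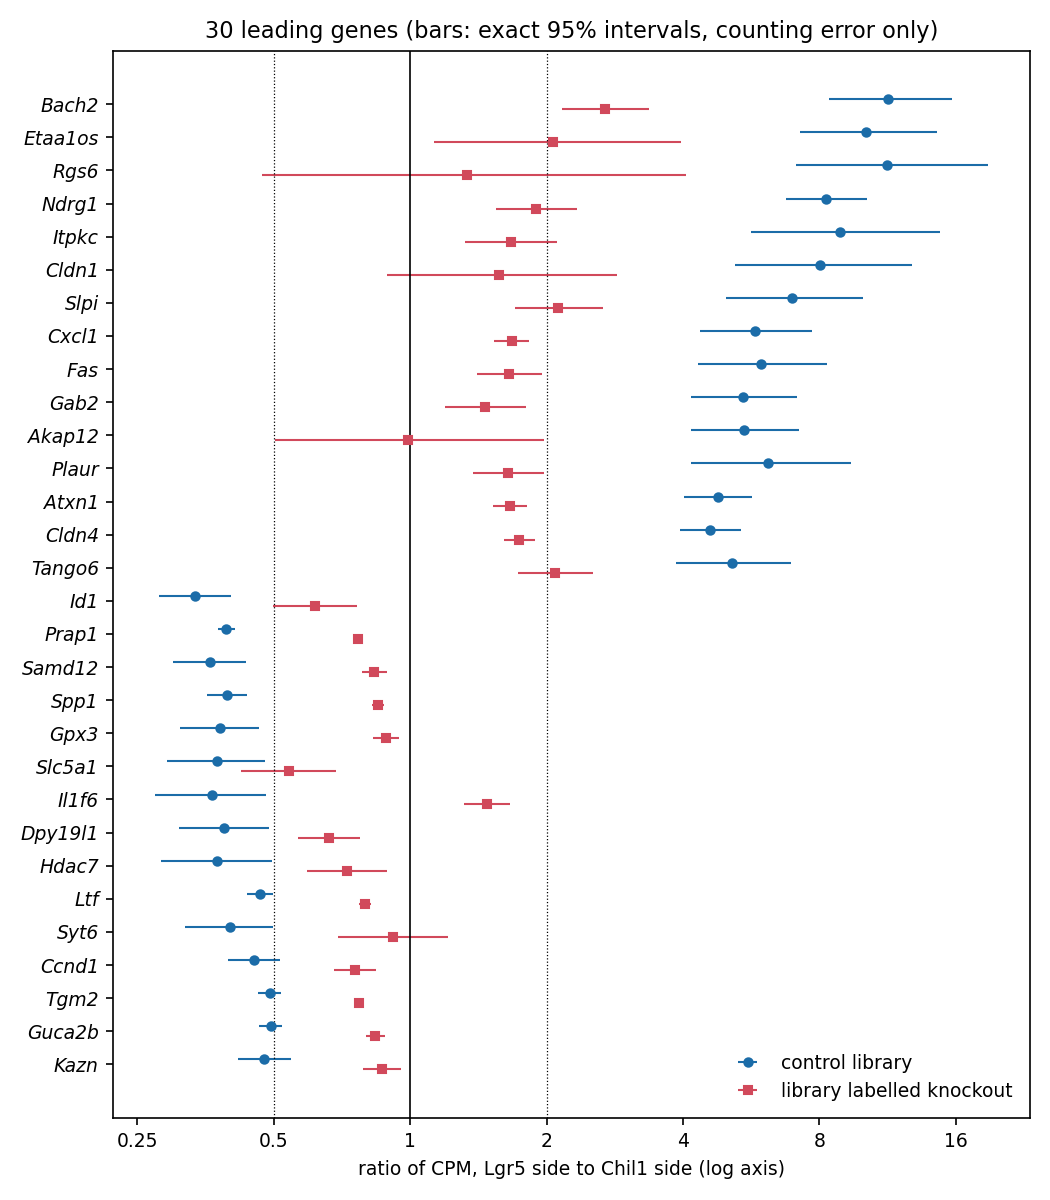
Ratio of CPM, Lgr5 side to Chil1 side (log axis), for the 15 leading higher and 15 leading lower genes of the control comparison; circles are the control library, squares the same rule in the library labelled knockout, and bars exact 95% intervals. Squares lie nearer to 1 than circles, as for Bach2 at 2.69 against 11.4, and Il1f6 lies on opposite sides of 1.

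Several receptors and ligands of the EGF family had higher levels in the Lgr5 Cap2 type. Errfi1 was at 858 CPM (827 to 890) in the Lgr5 Cap2 type, 449.6 CPM in tied cells and 300.5 CPM in the Chil1 Nt5e type, 2.85-fold higher (2.66 to 3.06), and was found in 235 and 185 cells. Egfr, the receptor that Mig-6 inhibits, was at 202 against 56.6 CPM (3.58-fold, 3.06 to 4.197). Hbegf, a ligand of that receptor which the luminal epithelium makes near the blastocyst, was at 345 against 124 CPM (2.78-fold, 2.49 to 3.10). The receptor, its ligand and its inhibitor were all higher in the summed UMIs of the type. Erbb3, a partner receptor, was at 69.6 against 29.3 CPM and its ligand Nrg1 at 106 against 50.03 CPM. In the steroid receptor and EGF list 4 of 9 measured members passed 2-fold upward, against 3.92% of all genes, and 0 downward. The list median was 0.32 on the log2 scale, and its sign was not stable, from -0.24 to 0.83 under other settings. The ligand Tgfa was lower, at 10.6 against 19.7 CPM, and Areg gave few UMIs at 11.5 against 6.56 CPM. The steroid receptors did not share the direction: Esr1, the estrogen receptor, was at 419.8 against 680.5 CPM, 1.62-fold lower (1.52 to 1.73), and Pgr, the progesterone receptor, at 45.4 against 48.9 CPM with an interval of the ratio from 0.743 to 1.16.

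Genes that ERK signalling induces as feedback were higher only in part: 3 of 10 members passed 2-fold, against 3.92% of all genes. The median of 0.65 was as low as 0.08 under other settings, the value with members of at least 100 UMIs only. These were Errfi1, Dusp5, an ERK phosphatase, at 253 against 68.6 CPM, and Phlda1 at 269.6 against 127 CPM. The classic feedback genes Dusp6 and Spry2 had ratios of 1.13 and 0.902, and Egr1 had a ratio of 0.992. A list of other tyrosine kinase receptors and adaptors, added after the values had been seen, had 7 of 14 members higher, with a median of 0.49. In it Igf1r, the IGF1 receptor, was at 736 against 237 CPM (3.11-fold) and was among the genes most like the margin. Fgfr2, a receptor for stromal FGFs, was at 575 against 253 CPM, and the insulin receptor substrate Irs2 at 79.1 against 27.6 CPM. Met, the HGF receptor, was within 2-fold at 87.9 against 66.7 CPM.

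In the WNT list, to which Lgr5 itself belongs by function, 7 of 26 intervals lay wholly below 1 and 2 above. Of 14 measured members 1 was higher and 1 lower, with a median of -0.16, against -0.08 for all genes. The higher one was Znrf3, a ligase that removes WNT receptors and that R-spondins block through Lgr receptors, at 367 against 138 CPM (2.65-fold, 2.39 to 2.94). The lower one was Ccnd1, at 96.2 against 213 CPM. Axin2, the most used WNT target, gave only 7 UMIs in each type, Lef1 1 and 2, and Lgr6 0 and 3. Lgr4, the sister receptor of Lgr5, was at 45.4 against 59.1 CPM and Rnf43, the sister of Znrf3, at 22.7 against 20.5 CPM. The luminal ligand Wnt7a was level at 25.7 against 25.4 CPM, Wnt5a was at 90.6 against 151 CPM and the WNT carrier Wls at 256 against 349 CPM. Among genes tied to epithelial progenitors, 0 of 6 were higher, which at a background of 3.92% is not a result about that list. Ly6a was lower, at 123 against 250.4 CPM.

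Progesterone targets stood apart from each other. Ihh was at 49.0 against 17.8 CPM, 2.76-fold higher (2.06 to 3.73), in 72 of the 251 cells. With Errfi1 it made 2 of 12 measured members, and the list median was 0.01. Calb1 was level at 345 against 343 CPM, Hdc was at 457 against 413 CPM, and Lrp2, a scavenger receptor, at 119 in both. The homeobox gene Msx1 was at 169.9 against 229 CPM. Estrogen targets leaned the other way, with a list median of -0.58 and 13 of 14 members with the whole interval below 1. Only Ltf passed 2-fold among 11 measured. Lcn2, an iron-sequestering protein, was at 1232 against 2186 CPM, Padi1, which converts arginine to citrulline, at 429.5 against 824 CPM and complement C3 at 766 against 1208 CPM. Cebpb went the other way at 217 against 124 CPM.

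Chemokine genes and NF-kB factors, which can drive them, leaned the same way. Of 11 chemokine and cytokine genes 5 passed 2-fold upward, against 3.92% of all genes, and the list median was 0.52. Cxcl2 was at 123 against 40.5 CPM, Cxcl16 at 61.7 against 22.7 CPM, the cytokine Il1a at 32.7 against 13.7 CPM and the adhesion molecule Icam1 at 42.5 against 19.96 CPM. The mucosal chemokine Ccl28 was lower, at 9.44 against 25.2 CPM. An NF-kB list added after the values had been seen had 7 of 13 members higher and a median of 1.01. Nfkb1 was at 231 against 84.2 CPM, Relb at 38.1 against 11.5 CPM, and the inhibitors Nfkbia and Tnfaip3 at 941 against 431 CPM and 34.5 against 10.4 CPM. Genes known to respond to cell dissociation leaned that way too, with 3 of 17 (Junb, Zfp36 and Nr4a1) past 2-fold and a median of 0.37; Fos was at 753 against 583 CPM and the heat shock gene Hspa1a at 737 against 884 CPM. The part of dissociation in the chemokine and NF-kB values was not tested. Interferon genes had a median of -0.22. In that list Ifi27l2a (5.09-fold) rested on few cells: without the cell with immune markers, or with doublets removed, its ratio was as low as 0.434. Cd74 had 119 UMIs in 3 cells and a ratio as low as 1.60 under the same settings.

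Keratin, junction and actin genes were mostly higher, the junction and actin genes only a little. Among keratins 2 of 6 passed 2-fold. Their list median was 0.93, from 0.43 to 1.14 under other settings, with 6 of 9 intervals above 1 and 1 below. Krt8 was at 1547 against 730.3 CPM (2.12-fold), but it is a gate gene, and Krt23 was at 139 against 39.4 CPM (3.52-fold). Krt7 went the other way at 541 against 801 CPM, so the keratins did not share 1 direction. In the junction and polarity list 17 of 24 intervals lay above 1 and 4 of 22 measured members passed 2-fold, with a median of 0.40. Cldn1 was at 52.5 against 6.56 CPM (8.002-fold, 5.21 to 12.8) and Cldn4 at 262 against 57.1 CPM (4.59-fold, 3.94 to 5.36), both claudins that seal tight junctions. Ocln, another tight junction protein, was at 133 against 62.3 CPM. Cldn3 and Cldn7 had ratios of 1.09 and 1.03 and Cldn10 of 0.826, so the claudins differed among themselves. In the actin list 17 of 23 intervals lay above 1, but only the linker Msn passed 2-fold, at 32.4 against 10.7 CPM. Tpm1, a tropomyosin, was at 1001 against 516 CPM, and Cap1, the close relative of Cap2, at 69.0 against 57.4 CPM.

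At the apical surface and in the nucleus both directions were seen. Itgav, an integrin subunit that binds osteopontin, was at 471 against 166 CPM (2.84-fold), while its ligand Spp1 was lower. Sdc4, a heparan sulfate proteoglycan, was at 1023 against 381 CPM (2.68-fold), while its relative Sdc1 was at 21.8 against 44.6 CPM. The mucin Muc1 was at 58.4 against 74.6 CPM. Of 19 transcription factors 5 were higher and 1 lower (3.92% and 1.18% of all genes), but the list median was -0.23, with 6 intervals above 1 and 8 below. Among the higher ones, Klf5, which the luminal epithelium needs for implantation, was at 407 against 197 CPM, Klf6 at 776 against 357 CPM, and the epithelial repressors Ovol1 and Ovol2 at 65.2 against 29.3 CPM and 58.1 against 21.3 CPM. Id1 was lower, as given above, and Id2 and Id3 had ratios of 0.517 and 0.636. In LIF signalling, the cue for attachment, 0 of 9 genes passed 2-fold, which at that background is not a result about the list. Its median was 0.37, with 6 of 11 intervals above 1 and 1 below. Stat3 had a ratio of 1.52 and its partner gene Cebpd of 1.99. None of the cell cycle (0 of 12), Notch (0 of 6), BMP (0 of 8) or ion transport (0 of 10) genes passed 2-fold, which at a background of 3.92% and 1.18% is not a result about these lists. The ion transport median was -0.34, with Fxyd3, a regulator of the sodium pump, at 1528 against 2219 CPM.

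**Figure D4:**
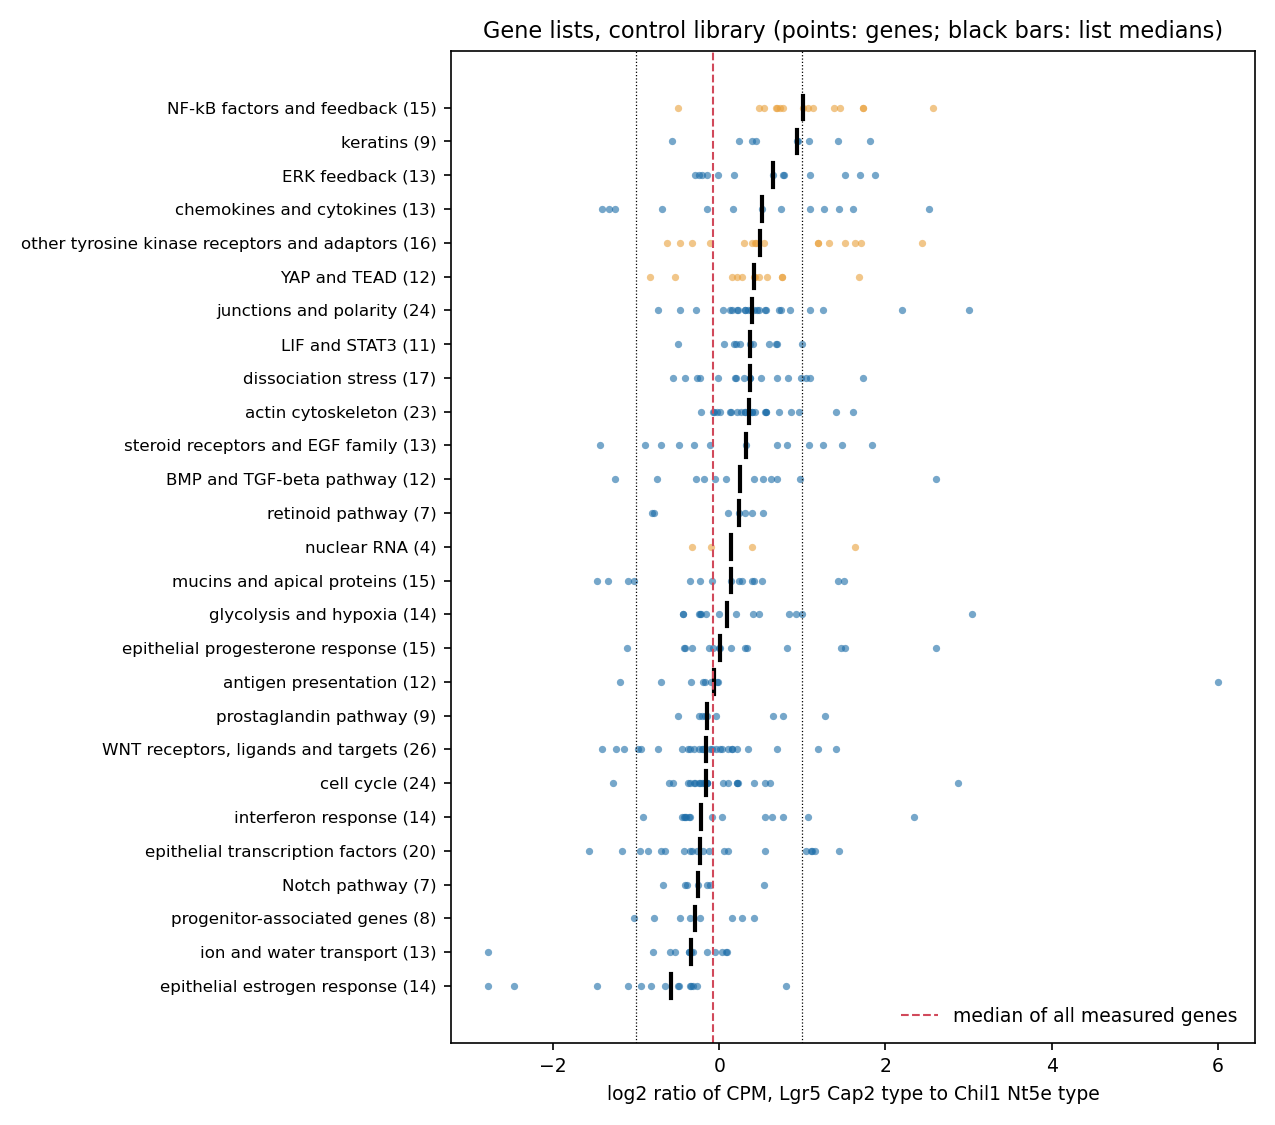
Log2 ratio of CPM, Lgr5 Cap2 type to Chil1 Nt5e type (horizontal axis), for members of 27 gene lists with at least 20 UMIs (their number in brackets); points are genes, black bars list medians, the dashed line the median of all measured genes (-0.08) and orange points the 4 lists added after the values had been seen. The NF-kB list has the highest median (1.01) and the estrogen response the lowest (-0.58), and the point near 6 is Cd74.

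The genes changed in steps along the margin. From a margin of -3 or less to 3 or more, Errfi1 was at 206, 293.5, 330.1, 449.6, 637, 947 and 1194 CPM. Hbegf went from 73.9 to 498.5 CPM and Ndrg1 from 24.6 to 347 CPM over the same range. Esr1 went the other way, from 765 to 303 CPM, and Id1 from 146 to 23.8 CPM. Prap1 and Spp1 broke between margins 1 and 2, Prap1 from 1301 to 326 CPM and Spp1 from 304 to 4.09 CPM. Calb1 lay between 288 and 386 CPM at every step, with 323 CPM at the last. Of the 15 leading higher genes, tied cells lay between margins -1 and 1 for 12, and the level at 3 or more was beyond that at 1 for all 15. Of the lower genes the counts were 13 and 14. These genes were picked for a difference between the 2 sides of the same margin in the same cells. Such an order is therefore in part built in, no share over all genes is given beside it, and the counts are descriptions. The nuclear transcript Malat1 also differed along the margin, from 6198 CPM at -3 or less and 5865 CPM at 0 to 8985 CPM at 2 and 10420 CPM at 3 or more, and its part in the other values was not tested. The margin itself is linked to how many rule genes a cell shows, and its correlation with log total UMIs was -0.11 over 622 cells.

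**Figure D5:**
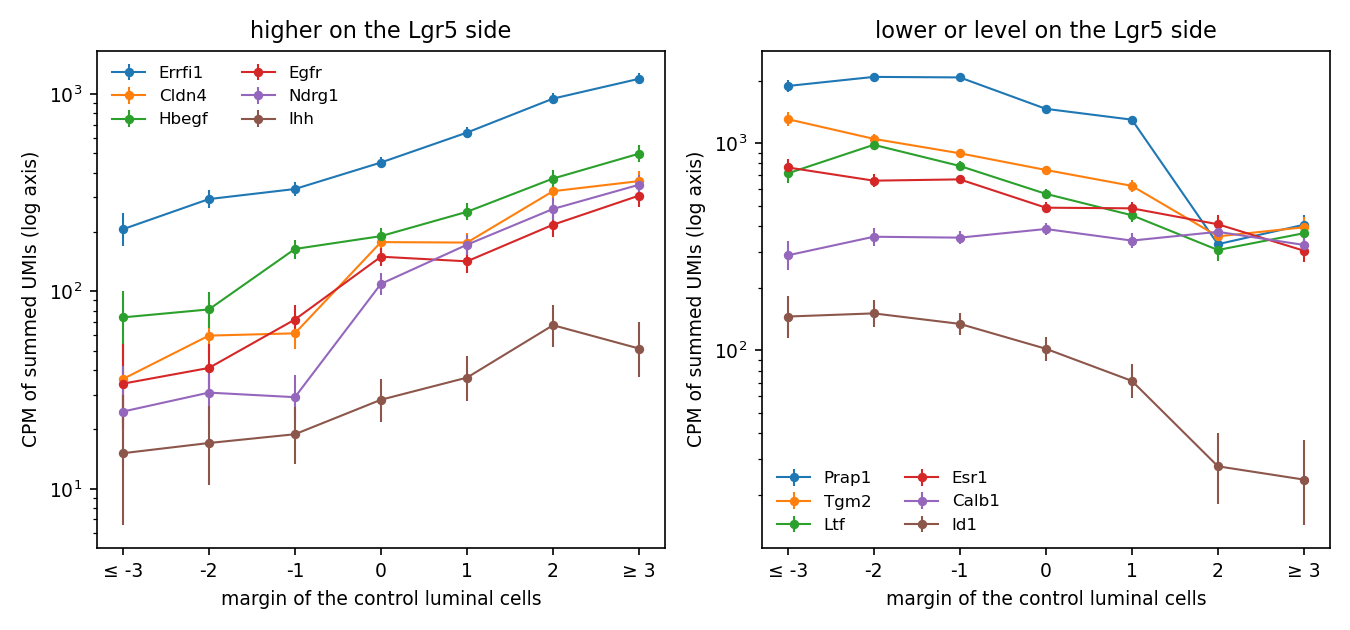
CPM of summed UMIs (log axis) at 7 steps of the margin in control luminal cells; lines join the steps and bars are exact 95% intervals. Errfi1, Hbegf, Egfr, Ndrg1, Cldn4 and Ihh are higher at 3 or more than at -3 or less, Esr1, Tgm2, Ltf, Id1 and Prap1 lower, and Calb1 stays between 288 and 386 CPM.

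Across the 622 luminal cells, the genes whose log level was most like the margin were Ndrg1 (Pearson r = 0.50), Cldn4 (0.46), Sdc4 (0.45), Herc4 (0.45), Adm (0.45), Igf1r (0.44), Errfi1 (0.44), Hbegf (0.44), Ccnl1 (0.42) and Klf6 (0.42), out of 7660 compared. Among those most opposed were Padi1 (-0.42), Bcat1 (-0.39), Tgm2 (-0.39), Atp2b2 (-0.36) and Esr1 (-0.34). The cells share 1 library, and these values describe it.

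The cells of the Lgr5 Cap2 type were also split by the genes of its set. Cells with and without an Lgr5 UMI (132 and 119 cells, with median UMIs of 12066.5 and 10718) differed by 2-fold in 18 of 4992 genes, 8 higher and 10 lower. Spp1 was at 57.9 CPM with Lgr5 and 286 CPM without, and Prap1 at 442 and 1327 CPM. The S-phase gene Mcm5 was at 14.6 and 41.3 CPM and Top2a, of dividing cells, at 10.1 and 39.9 CPM. Both genes had fewer than the 100 UMIs needed for a call and are not among the 18. Slpi went the other way, at 97.2 and 46.3 CPM. Cells with and without Krt17 (119 and 132 cells) differed in 30 higher and 7 lower genes. Akap12 was at 142 and 44.3 CPM, Egfr at 263 and 127 CPM, Cldn1 at 71.3 and 29.1 CPM and Plaur at 67.1 and 29.8 CPM. Splits by Cap2, Tm4sf1 and Khdrbs3 gave larger counts, 138 higher and 42 lower, 61 and 32, and 54 and 9, with only 36, 63 and 62 cells without the UMI. Both the Lgr5 and the Krt17 split hold Cd74 and Ifi27l2a among their higher genes, at 59.4 against 0.712 CPM for Cd74 by Lgr5. A single cell held 116 of the 119 Cd74 UMIs and no cell was left out of the splits. The split genes belong to the rule, and median UMIs were higher in the cells with the UMI in all 5 splits.

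The library labelled knockout, which did not choose the cells, gave the same rule 437 of 1333 luminal cells (32.8%), with 381 on the Chil1 side and 515 tied. No rule gene was detected in 227 of its luminal cells. All 5 set genes had lower levels on its Lgr5 side than in the control type. Lgr5 was at 28.3 CPM on the Lgr5 side and 14.4 CPM over all luminal cells, Krt17 at 38.8 and 16.8 CPM, and Khdrbs3 at 20.8 and 10.9 CPM. Tm4sf1 was at 238 CPM on the Lgr5 side, so it carried most of the set's UMIs (1441 of 2546). Errfi1 was at 569 CPM on the Lgr5 side and 419.95 CPM on the Chil1 side of that library, and at 509 CPM over its luminal cells. The labels do not say which part of the gene was deleted, so these counts do not check its deletion.

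Differences between the sides kept their direction there but were smaller. Of the 286 higher control genes 280 were measured and 262 (93.6%) had a ratio above 1, but only 23 reached 2-fold, and the median log2 ratio was 0.55 against 1.29 in the control. Of the 86 lower genes 85 were measured and 79 (92.9%) were below 1, with 4 at 2-fold and a median of -0.36. Over all genes measured in both, 44.5% were above 1 and 55.5% below. The number beyond 2-fold between the sides was 33 higher (0.413%) and 8 lower (0.1%) of 7990. Bach2 had a ratio of 2.69, Slpi of 2.12, Tango6 of 2.09, Ndrg1 of 1.89 and Cldn4 of 1.74. Hbegf was at 242 against 145 CPM and Egfr at 204 against 139.9 CPM there, ratios of 1.66 and 1.46. Krt23 and Nr4a1 reached 2-fold, at 2.56 and 2.08. Akap12 had a ratio of 0.990 at only 3.47 and 3.51 CPM. The same 10 genes sorted both libraries, so agreement of rule-linked genes is in part built in. The called genes were chosen for a 2-fold ratio in the control, so smaller ratios in another library are in part built in too. On the Lgr5 side, 296 of 437 cells had a margin of only 1 there, against 111 of 251 in the control. The part of this in the smaller ratios was not tested. Medians of UMIs per cell were 11126 and 11818 on the 2 sides.

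Set directly against all luminal cells of the library labelled knockout, 851 of 9392 genes were at least 2-fold higher in the Lgr5 Cap2 type (9.06%) and 527 lower (5.61%), a contrast of 2 libraries that also differ in depth. Progesterone targets had the highest list median, 2.47, with 9 of 13 members higher. Ihh was at 49.0 against 0.593 CPM, Calb1 at 345 against 15.9 CPM (21.7-fold) and Hdc at 457 against 17.9 CPM (25.5-fold). Between the 2 control types the median of this list was only 0.01. The 8 luminal markers, these 3 genes among them, summed to 1109 CPM in the Lgr5 Cap2 type and 1041 CPM in the Chil1 Nt5e type. They summed to 214 CPM in luminal cells of the library labelled knockout, so this gap was not particular to the Lgr5 Cap2 type. Estrogen targets were lower in 8 of 14, with a median of -1.49, among them Lcn2 at 1232 against 5776 CPM. Of 13 cell cycle genes 9 were higher, Mcm5 at 25.7 against 3.38 CPM among them. By the size rule the leading higher genes were Aspg, an asparaginase (52.2 against 0.415 CPM), the antisense-named Far2os2, the growth factor Pgf (74.3 against 1.90 CPM), the glucose carrier Slc2a3 (123 against 3.85 CPM) and Akap12 (98.2 against 3.08 CPM). The leading lower genes were Clca1 (0.295 against 671 CPM), Golm1, Prap1 (808 against 13384 CPM), Aqp5 and Asic2. Of the genes that set the type apart within the control, Cxcl1 and Cxcl2 were lower here (94.4 against 205 and 123 against 309.6 CPM), Phlda1 too (269.6 against 828 CPM), and Egfr and Hbegf were within 2-fold. Both contrasts use the same 251 cells, so their values are set side by side only.

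Against the 103 control glandular cells, 885 of 6136 genes were at least 2-fold higher (14.4%) and 513 lower (8.36%). Fxyd4, a regulator of ion pumps, was at 1118 against 14.2 CPM and Prap1 at 808 against 2.36 CPM, on 3 glandular UMIs. Spp1, Sprr2b and the protease Napsa had 0 glandular UMIs and were at least 64.7-fold, 51.4-fold and 49.1-fold higher, against a floor of 3 UMIs over the glandular cells; Sprr2b belongs to a near-identical family and its value is uncertain. Gkn3 and Hpx were at 0 in the Lgr5 Cap2 type and at least 219-fold and 123-fold lower against a floor of 3 UMIs over its cells. Lgr5 was at 4.72 CPM in the glandular cells, on 6 UMIs, against 158 CPM in the Lgr5 Cap2 type. Egfr was at 5.504 CPM there against 202 CPM. Errfi1 was at 831 CPM there, near the 858 CPM of the Lgr5 Cap2 type.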

How the data were processed

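Counts of UMIs per gene and barcode (32285 features) were deposited by the authors, and per the file headers Cell Ranger 7.0.1 made them. Per the submitters' processing notes the build was mm39 and Seurat was used. No annotation of cells was used. Barcodes were kept from 500 detected genes upward and up to 15% mitochondrial UMIs. Luminal cells had Epcam, Krt8, Krt18 and Cldn7 at 10 or more, Dcn, Col1a2 and Col3a1 under 5, and Prss29, Prss28, Spink1, Cxcl15 and Krt83 under 10 per 10000 UMIs. Control glandular cells passed the first 2 gates and not the last. UMIs were summed per group and ratios of CPM given with exact conditional 95% intervals, which cover counting error only. The unit of comparison was 1 library per genotype, so no test was made. A gene was called at 2-fold with at least 100 UMIs in both groups together, and list medians use members with at least 20 UMIs. The leading genes were the 15 higher and 15 lower (5 and 5 in other contrasts) by the bound of the ratio nearest 1, with at least 50 CPM in the higher group. Mitochondrial, ribosomal, hemoglobin and unnamed genes were left out of that ranking, with rule and gate genes and genes under 0.25 of their CPM in stromal or immune cells. Doublets were kept and removed only as an alternative, with Scrublet in scanpy 1.11.5 at 0.8% per 1000 barcodes. Clusters used 20 components and 15 neighbours. The calculation was tested on simulated group sums that varied by counting error only. Unevenness between cells was not simulated, so that check does not cover it. Python 3.11.15, numpy 2.4.6, scipy 1.17.1 and pandas 2.3.3 were used. The members, the 23 gene lists and the markers were chosen with earlier results of these data known, and 4 lists were added after the values had been seen. Other settings tried are given with their effect in the closing section, and the second clustering resolution beside the clusters. Values of a few genes that the rules would name are not reported here.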

Additional observations from a re-analysis of the deposited data

Results flagged for a closer look

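Il1f6, an interleukin-1 family cytokine, lay on opposite sides of 1 in the 2 libraries. Only the 15 leading higher and 15 leading lower genes were screened for this. Among all called genes, 262 of 280 higher and 79 of 85 lower ones kept their direction, so Il1f6 was not the only exception. In the control it was at 20.4 CPM in the Lgr5 Cap2 type and 55.8 CPM in the Chil1 Nt5e type, a ratio of 0.365 (0.274 to 0.482). In the library labelled knockout it was at 130.3 CPM on the Lgr5 side and 88.1 CPM on the Chil1 side, a ratio of 1.48 (1.32 to 1.66). With 1 library per genotype the difference between the ratios was not tested.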

How the results depend on the processing

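The number of cells followed the rule: 140 with a margin of at least 2, and 203, 165, 213, 175 and 184 when Lgr5, Cap2, Krt17, Khdrbs3 or Tm4sf1 was left out of it, and 305, 307, 348, 331 and 303 when Chil1, Nt5e, Fyb, Cacna2d3 or Egflam was. Genes at least 2-fold higher than in the Chil1 Nt5e type numbered 173 with a minimum of 300 UMIs and stayed within 1.5 times of 286 in the other 22 of 23 alternatives. Genes at least 2-fold lower (86) numbered 21 with a minimum of 300 UMIs, 201 with 50, 139 by means over cells, 57 by median-of-ratios scaling and 197 with a margin of at least 2. They numbered 145, 182, 150, 180, 57, 56 and 41 without Lgr5, Cap2, Khdrbs3, Tm4sf1, Chil1, Nt5e or Cacna2d3 in the rule. With a margin of at least 2, 231 of the 286 higher genes (80.8%) and 36 of the 86 lower genes (41.9%) were called again. Among called list members, Rela fell under 2-fold in 13 of 21 settings, Ly6a and Sdc1 in 9 and Klf5 in 8. Krt8 did so in 6, and Il1a and Icam1 in 5. Against luminal cells of the library labelled knockout, a minimum of 300 UMIs gave 452 higher and 321 lower genes. With a margin of at least 2, an alternative chosen after seeing the data, 547 of 608 called genes had the same direction in the library labelled knockout (341 of 365 otherwise). The cause of these shifts was not tested, apart from the fewer genes that a higher minimum leaves. List medians moved past the counting interval of the middle member in 42 of 593 alternatives, of which 11 were for ERK feedback and 12 for nuclear RNA. Several medians near 0 changed sign, among them the steroid receptor and EGF list (-0.24 to 0.83), WNT (-0.27 to 0.07) and cell cycle (-0.56 to 0.19). No paired analysis was possible because there is 1 library per genotype. Replicate error is unknown, and depth limits rare genes such as Axin2, at 7 UMIs in each type.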

Other observations

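Some gene groups of the Lgr5 Cap2 type were not described above. YAP and TEAD genes, a list added after the values had been seen, had 1 of 10 members at least 2-fold higher than in the Chil1 Nt5e type. This was the DNA-binding factor Tead1, at 369.6 against 115 CPM, and its targets Ccn1 and Ccn2 had ratios of 1.33 and 1.69. In the prostaglandin list 1 of 9 passed 2-fold, the transporter Slco2a1 at 82.0 against 33.9 CPM, and Ptgs2, the inducible cyclooxygenase, was at 109 against 64.3 CPM. The nuclear transcript Neat1 was at 435 against 140.3 CPM and Malat1 at 8512 against 6499 CPM. In the glycolysis and hypoxia list Ndrg1 alone of 13 passed 2-fold, and Vegfa and Slc2a1 had ratios of 1.90 and 1.79, while Aldoa, Gapdh and Eno1 had ratios of 0.853, 0.844 and 0.740.

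The genes at least 2-fold higher in the Lgr5 Cap2 type span more of the genome than other genes. Their median span was 55.7 kb over 279 of 286 genes with a RefSeq entry, against 36.8 kb for the lower genes and 27.4 kb for all genes tested. In 4 groups of about 1800 genes, from the shortest to the longest spans, 46, 66, 41 and 126 were higher. The same groups held 22, 14, 16 and 32 lower genes, so the rise was not steady and the longest held the most of both. Spans come from a RefSeq table of another assembly and serve only as a property of each gene.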
